A study of Mus musculus with 2 samples.

Results

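The 9 hairpins described here belong to 3 paralogous loci of the mouse genome, each of which holds a miR-99/100, a let-7 and a miR-125 hairpin. They were taken by gene identifier from the 2202 miRNA genes counted by microRNA-seq, and all 9 had reads. The tissue was heart from adult males, 8 to 10 months old, labelled as strain 5xFAD/CAST, in 2 libraries that the labels call biological replicates 1 and 2 of a single group. 5xFAD is a transgenic model of brain amyloid deposition whose transgenes are driven by the neuronal Thy1 promoter, and CAST is a wild-derived inbred strain. The labels state neither whether the animals carried the transgenes nor whether the replicates came from separate animals, and they give both the same donor entry. There was no second group, so the data describe levels and the spread between the libraries, which may be technical.

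A miRNA hairpin is cut to a short mature strand, in these families mostly from its 5′ arm (5p), and bases 2 to 8 of that strand, the seed, select the messenger RNAs that are repressed. let-7 restrains growth and cell division genes in differentiated cells, and the LIN28 proteins block its maturation. miR-125 is the relative of the worm miRNA lin-4 and represses Lin28 genes. miR-99 and miR-100 repress Mtor, a growth kinase, in several cell types, and in zebrafish they fall when the injured heart regenerates. The linkage of the families is ancient, since flies carry mir-100, let-7 and mir-125 in a single cluster.

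The mature 5p sequences are shown because they define the families and because several of them occur in more than 1 hairpin. All 9 hairpins matched the RefSeq miRNA table (build GRCm38.p6) and hold 8 distinct 5p sequences, printed 5′ to 3′ with the seed in capitals.
miR-99a-5p (Mir99a): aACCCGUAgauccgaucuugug
miR-99b-5p (Mir99b): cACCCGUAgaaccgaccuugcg
miR-100-5p (Mir100): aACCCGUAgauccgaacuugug
let-7c-5p (Mirlet7c-1): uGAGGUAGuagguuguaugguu
let-7e-5p (Mirlet7e): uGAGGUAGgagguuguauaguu
let-7a-5p (Mirlet7a-2): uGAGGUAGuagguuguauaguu
miR-125a-5p (Mir125a): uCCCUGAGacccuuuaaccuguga
miR-125b-5p (Mir125b-1 and Mir125b-2): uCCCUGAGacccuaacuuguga

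Within each family the seed was identical in every member. Counted from 1 at the 5′ end, miR-99a-5p and miR-100-5p differed at 1 base (U16A), and miR-99b-5p differed from each of them at 4 bases. let-7a-5p differed from let-7c-5p at 1 base (A19G) and from let-7e-5p at 1 base (U9G), so all 3 let-7 sequences have their own letters outside the seed. let-7a-5p is listed in the table under Mirlet7a-1, and it occurs once in the Mirlet7a-2 hairpin.

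Of the 9 hairpins, 4 carry a 5p sequence that lies letter for letter in another counted hairpin, and for 5 no other counted hairpin holds it. Mir125b-1 and Mir125b-2 share theirs with each other, across chromosomes 9 and 16. Mirlet7c-1 shares its 5p sequence with Mirlet7c-2, and Mirlet7a-2 shares its own with Mirlet7a-1, both outside the loci. The hairpins of the let-7 pairs are shown with the shared 5p stretch in capitals.
Mirlet7c-1, chr16:77599657-77599750, plus strand: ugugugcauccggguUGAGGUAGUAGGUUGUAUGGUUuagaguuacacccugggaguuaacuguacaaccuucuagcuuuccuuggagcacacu
Mirlet7c-2, chr15:85706603-85706697, plus strand: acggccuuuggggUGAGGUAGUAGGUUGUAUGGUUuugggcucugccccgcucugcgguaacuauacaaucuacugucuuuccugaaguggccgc
Mirlet7a-2, chr9:41536716-41536811, plus strand: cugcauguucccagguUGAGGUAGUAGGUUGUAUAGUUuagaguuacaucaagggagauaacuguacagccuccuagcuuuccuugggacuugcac
Mirlet7a-1, chr13:48538179-48538272, minus strand: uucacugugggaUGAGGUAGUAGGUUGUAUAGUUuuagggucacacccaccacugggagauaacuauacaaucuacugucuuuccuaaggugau

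The longest exact stretch shared with any other counted hairpin was 23 bases for Mirlet7c-1 and Mirlet7a-2 and 24 bases for Mir125b-1 and Mir125b-2. It was 16 bases for Mir99a and for Mir100, which share it with each other, 17 for Mirlet7e, 14 for Mir125a and 11 for Mir99b. The 3p strand of each of the 9 hairpins, as listed, occurred in 0 other counted hairpins. It is printed for the 4 hairpins with a shared 5p, as the arm that no other counted hairpin holds, with bases 2 to 8 in capitals.
let-7c-1-3p (Mirlet7c-1): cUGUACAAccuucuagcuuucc
let-7a-2-3p (Mirlet7a-2): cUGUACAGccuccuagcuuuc
miR-125b-1-3p (Mir125b-1): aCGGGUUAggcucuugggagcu
miR-125b-2-3p (Mir125b-2): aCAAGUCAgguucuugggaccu

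All hairpins lie on the plus strand of mm10 and, by GENCODE M21, mostly in introns of long host transcripts. On chromosome 16, Mir99a (ENSMUSG00000065530.1, 77598936 to 77599000), Mirlet7c-1 (ENSMUSG00000065557.3, 77599657 to 77599750) and Mir125b-2 (ENSMUSG00000065472.1, 77646273 to 77646343) lie in introns of all 4 transcripts of Mir99ahg that span them, a non-coding host gene. The gaps between them are 656 and 46522 bases. Mir125b-2 also overlaps an exon of C130023A14Rik on the same strand. Mir99a and Mirlet7c-1 also lie in an intron of the protein-coding gene Gm11146 on the minus strand.

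The chromosome 17 locus is the compact one, with gaps of 94 and 367 bases. Mir99b (ENSMUSG00000065396.1, 17830188 to 17830257) and Mirlet7e (ENSMUSG00000105758.1, 17830352 to 17830444) lie in introns of Spaca6, a protein-coding gene needed for sperm-egg fusion, in the 2 transcripts that span them. Mir125a (ENSMUSG00000065479.2, 17830812 to 17830879) overlaps an exon of 1 Spaca6 transcript and introns of 2 others. On the minus strand, the predicted miRNA gene Gm25927 (17830343 to 17830459) covers the whole of Mirlet7e.

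On chromosome 9 the gaps are 5211 and 45114 bases. Mir100 (ENSMUSG00000093011.1, 41531425 to 41531504), Mirlet7a-2 (ENSMUSG00000092770.1, 41536716 to 41536811) and Mir125b-1 (ENSMUSG00000093354.1, 41581926 to 41582002) lie in introns of the non-coding gene 3110039I08Rik and of the lincRNA Gm49317. Mir100 also overlaps an exon of the minus-strand lincRNA Gm48742, and Mir125b-1 an exon of the plus-strand sense-intronic gene Gm28119.

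Levels are CPM, a hairpin's sense count divided by the sense counts of its library and multiplied by 1000000. The sense counts totalled 3889280 in replicate 1 and 5058613 in replicate 2. Each hairpin has 1 count, with its 5p and 3p arms together. Reads that aligned to several places were given to no gene, and they made up 42.3% and 46.8% of all reads in the tables. Of 7 marker hairpins of heart muscle, Mir499 and Mir208a stood at 4310 ± 2232 and 2685 ± 1697 CPM, and the other 5 were low. Mir208b averaged 85.6 ± 41.1 CPM, Mir1a-2 40.1 ± 5.40 CPM, Mir133a-1 3.58 ± 0.0292 CPM, Mir133a-2 2.67 ± 0.139 CPM and Mir1a-1 1.65 ± 0.937 CPM (SD, n = 2). The last 3 lay below the liver hairpin Mir122, at 27.9 ± 1.21 CPM. Meanwhile 4 of 6 neuronal hairpins (Mir9 and Mir124a genes) were at 0 in both libraries, the others having at most 3 counts. A count of 0 allows up to 3 counts, 0.771 CPM in replicate 1 and 0.593 CPM in replicate 2, and the Mir1a, Mir133a, Mir9 and Mir124a families each consist of several hairpins with the same main mature strand. The part of reads aligned to several places in these low values was not tested.

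In replicate 1 the 3 loci together held 7.45% of sense counts, and in replicate 2 they held 5.51%. The 95% Clopper-Pearson bounds were 7.43 to 7.48 and 5.49 to 5.53, and the mean was 6.48% ± 1.38 (SD, n = 2). Intervals cover counting error only, and here the libraries differed by far more than that. The Mir99a locus held 3.99% ± 0.702, the Mir99b locus 1.90% ± 0.552 and the Mir100 locus 0.591% ± 0.123, in that order in both libraries. Among the counts of the 9 hairpins the make-up by locus was close between the libraries. The Mir99a locus took 60.2% in replicate 1 and 63.5% in replicate 2, the Mir99b locus 30.7% and 27.4%, and the Mir100 locus 9.10% and 9.15%. For the Mir100 locus the intervals of the libraries overlapped (8.99 to 9.20 and 9.04 to 9.25).

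**Figure D1:**
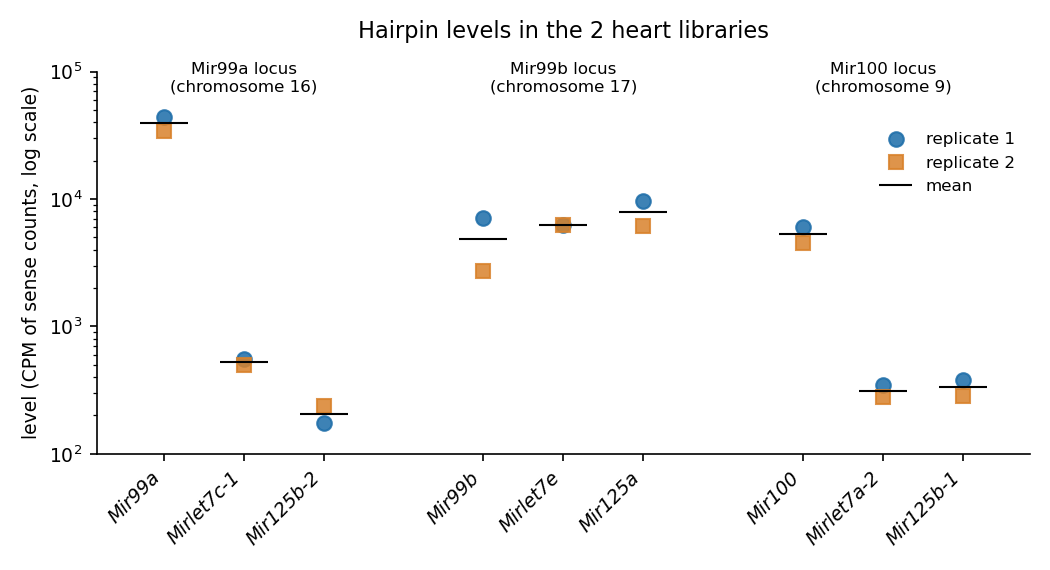
Level of each of the 9 hairpins in CPM on a log axis, grouped by locus, with a circle for replicate 1, a square for replicate 2 and a line at the mean. In the Mir99a and Mir100 loci the first hairpin lies far above the other two, while the 3 hairpins of the Mir99b locus lie between 2711 and 9611 CPM. Reads that aligned to several places are not counted.

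The miR-99/100 hairpins led the loci on chromosomes 16 and 9. Mir99a, the hairpin of miR-99a, had 171660 counts (44137 CPM) in replicate 1 and 173001 counts (34199 CPM) in replicate 2, a mean of 39168 ± 7027 CPM. It ranked 10 among all counted hairpins by mean level, and it was the most abundant of the 9 in both libraries, with no overlap with any other. Mir100 had 23560 counts (6058 CPM) and 22625 counts (4473 CPM), a mean of 5265 ± 1121 CPM at rank 27. Mir99b had 27452 counts (7058 CPM) and 13713 counts (2711 CPM), a mean of 4885 ± 3074 CPM at rank 28.

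Mir99b was thus above Mir100 in replicate 1 and below it in replicate 2, and the spread between the libraries was larger than the difference of their means. The ratio of Mir99a to Mir100 stayed near one value, at 7.29 in replicate 1 and 7.65 in replicate 2 (95% exact bounds 7.19 to 7.39 and 7.54 to 7.75). The ratio of Mir99a to Mir99b, in contrast, was 6.25 (6.17 to 6.33) and 12.6 (12.4 to 12.8). Of the counts of this family Mir99a held 79.9% ± 3.92, Mir100 10.7% ± 0.161 and Mir99b 9.44% ± 4.09. These 3 hairpins are all the counted hairpins listed with this seed, and together they took 4.93% ± 1.12 of sense counts.

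Of the let-7 hairpins of the loci, Mirlet7e stood far above the other two. Mirlet7e had 24177 counts (6216 CPM) in replicate 1 and 31480 counts (6223 CPM) in replicate 2, a mean of 6219.7 ± 4.76 CPM at rank 23. Mirlet7c-1 had 2141 counts (550.5 CPM) and 2525 counts (499 CPM), a mean of 525 ± 36.3 CPM at rank 80. Mirlet7a-2 had 1337 counts (344 CPM) and 1412 counts (279 CPM), a mean of 311 ± 45.7 CPM at rank 90.

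The order of these 3 was the same in both libraries, without overlap. Mirlet7e held 88.2% ± 1.03 of their counts, Mirlet7c-1 7.44% ± 0.433 and Mirlet7a-2 4.41% ± 0.599. The 3 hairpins held 2.68% of the counts of all hairpins with the let-7 seed in replicate 1 and 2.64% in replicate 2 (95% Clopper-Pearson bounds 2.65 to 2.71 and 2.61 to 2.67). Most counts of the let-7 seed thus belonged to hairpins elsewhere in the genome. Each let-7 partner with the same 5p sequence was the higher of its pair. Mirlet7c-2 had 2.55 and 2.52 times the counts of Mirlet7c-1 (intervals 2.42 to 2.68 and 2.40 to 2.63), and Mirlet7a-1 had 2.08 and 2.66 times those of Mirlet7a-2 (1.95 to 2.22 and 2.50 to 2.82). Reads that aligned to several places were given to no gene. Their part in the shares and ratios of these let-7 hairpins was not tested.

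Of the counts given to the miR-125 hairpins of the loci, Mir125a held nearly all. Mir125a had 37379 counts (9611 CPM) in replicate 1 and 31098 counts (6148 CPM) in replicate 2, a mean of 7879 ± 2449 CPM at rank 20. Mir125b-1 had 1473 counts (379 CPM) and 1438 counts (284 CPM), a mean of 331.5 ± 66.8 CPM at rank 89. Mir125b-2 had 679 counts (175 CPM) and 1206 counts (238 CPM), a mean of 206 ± 45.1 CPM at rank 103.

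Mir125a held 93.4% ± 1.69 of the counts of the 3 miR-125 hairpins, Mir125b-1 3.99% ± 0.379 and Mir125b-2 2.65% ± 1.31. Mir125b-1 exceeded Mir125b-2 in both libraries, by 2.17 times in replicate 1 and 1.19 times in replicate 2 (95% exact bounds 1.98 to 2.38 and 1.104 to 1.29). Outside the loci, Mir351, whose mature strand has the miR-125 seed, stood at 382 ± 117 CPM, with 1809 and 1514 counts. The 3 hairpins held 95.6% of the counts of hairpins with this seed in replicate 1 and 95.7% in replicate 2. The other 2 listed with this seed, Mir6367 and Mir6394, had 0 counts in both libraries. Mir125b-1 and Mir125b-2 have the same 5p sequence, while no other counted hairpin holds that of Mir125a. Any read without a unique alignment is missing from these counts. What such reads would add to these miR-125 shares and ratios was not tested.

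In the order of mean level over all 9, the neighbours whose library ranges overlapped were Mir125a and Mirlet7e, Mir100 and Mir99b, and Mir125b-1 and Mirlet7a-2. These pairs were not separated beyond their spread. Mir125b-1 stood above Mirlet7a-2 in both libraries, at 379 against 344 CPM in replicate 1 and 284 against 279 CPM in replicate 2. The other pairs changed order between the libraries. Hairpin lengths run from 65 to 96 bases, and dividing the levels by length, a step chosen after seeing the data, moved Mir99b from place 5 to place 3 and left the places of Mir99a, Mir125a and the lowest 4 as they were.

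**Figure D2:**
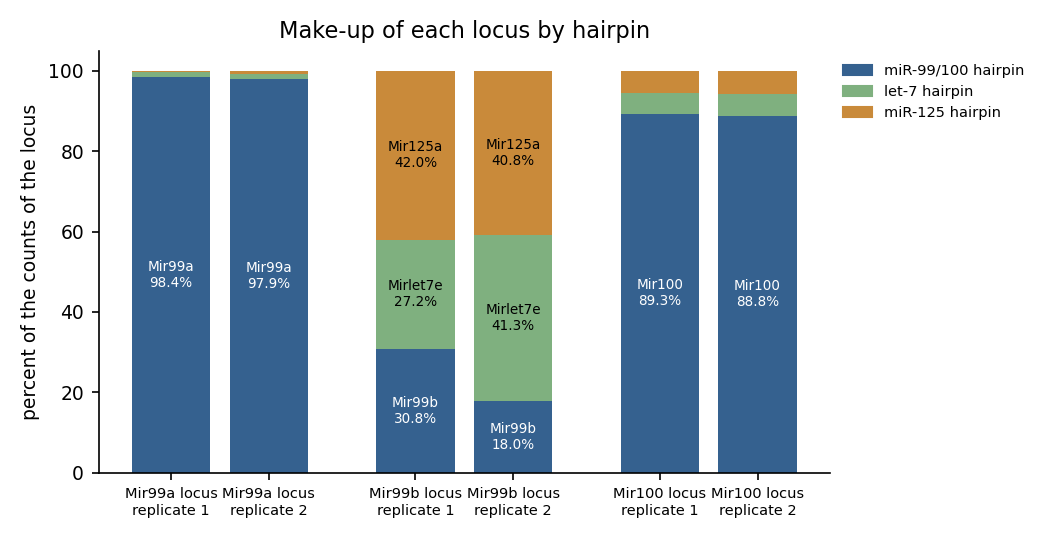
Percent of the sense counts of each locus (y axis) held by its miR-99/100, let-7 and miR-125 hairpin, with a bar for each library. In the Mir99a and Mir100 loci 1 hairpin fills most of each bar, while in the Mir99b locus Mir99b holds 30.8% in replicate 1 and 18.0% in replicate 2. Reads that aligned to several places are not counted.

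The hairpins of a locus were farther from equal in counts on chromosomes 16 and 9 than on chromosome 17, where the highest had 1.55 times the counts of the lowest in replicate 1 and 2.30 times in replicate 2. The let-7 and miR-125 hairpins on chromosomes 16 and 9 have a 5p copy elsewhere, and those on chromosome 17 have none. Reads that aligned to several places were given to no gene, and their part in this difference was not tested. Shares within a locus need no scaling between the libraries. Mir99a held 98.4% of its locus in replicate 1 and 97.9% in replicate 2 (95% Clopper-Pearson bounds 98.3 to 98.4 and 97.8 to 97.96), with a mean of 1.33% ± 0.143 for Mirlet7c-1. Mir125b-2 held 0.389% in replicate 1 and 0.682% in replicate 2 (0.360 to 0.419 and 0.645 to 0.722), so its small share differed between the libraries. Mir99a had 80.2 and 68.5 times the counts of Mirlet7c-1, which lies 656 bases away, and 253 and 143 times those of Mir125b-2 (95% exact bounds 234 to 273 and 136 to 152).

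Mir100 held 89.3% of its locus in replicate 1 (89.0 to 89.7) and 88.8% in replicate 2 (88.4 to 89.2). Mirlet7a-2 held 5.07% (4.81 to 5.34) and 5.54% (5.26 to 5.83), and Mir125b-1 held 5.59% (5.31 to 5.87) and 5.64% (5.36 to 5.94). For all 3 hairpins of this locus the intervals of the libraries overlapped. Mir100 had 17.6 and 16.02 times the counts of Mirlet7a-2, and 15.99 and 15.73 times those of Mir125b-1. Reads that aligned to several places are left out of these shares and ratios too.

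In the Mir99b locus the make-up differed between the libraries for its larger shares too. Mir125a held 42.0% in replicate 1 (41.7 to 42.3) and 40.8% in replicate 2 (40.4 to 41.1), close to each other although the intervals do not overlap. Mir99b held 30.8% (30.5 to 31.1) and 18.0% (17.7 to 18.2), and Mirlet7e held 27.2% (26.9 to 27.5) and 41.3% (40.9 to 41.6). Mirlet7e and Mir99b, 94 bases apart, thus changed places: the ratio of Mirlet7e to Mir99b was 0.881 in replicate 1 and 2.30 in replicate 2 (95% exact bounds 0.866 to 0.896 and 2.25 to 2.34).

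The 4 hairpins with a 5p copy elsewhere were the 4 lowest of the 9. In single libraries they ranged from 175 to 550.5 CPM, against 2711 to 44137 CPM for the 5 without such a copy, so the ranges did not overlap. Per kilobase of hairpin, mean levels ran from 2908 to 5583 CPM in the 4 and from 65814 to 602585 CPM in the 5. In the Mir99b locus, 0 of the 3 hairpins had a copy. The part of reads aligned to several places in this pattern was not tested.

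**Figure D3:**
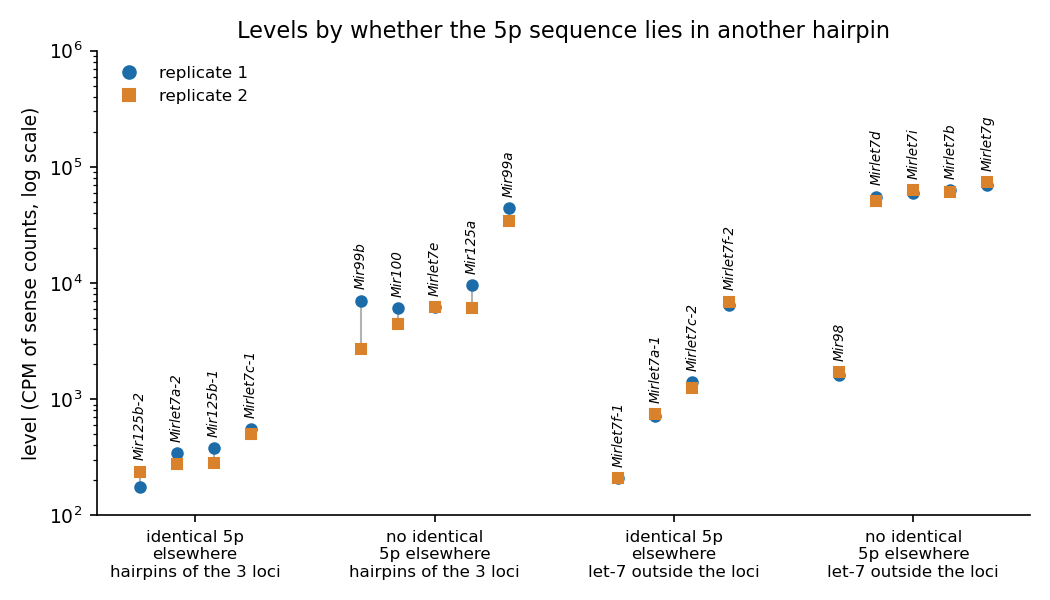
Level in CPM on a log axis for hairpins whose 5p sequence lies in another counted hairpin and for those where it does not, for the 9 hairpins of the loci and for the let-7 hairpins outside them. Mir7j and Mir7k are left out. Circles are replicate 1 and squares replicate 2. The 4 hairpins of the loci with a copy lie below the other 5, while outside the loci the groups overlap.

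Outside the loci the same split was less sharp. The let-7 relatives Mir7j and Mir7k, at 20.7 ± 2.40 and 0.227 ± 0.042 CPM, were left out of this split. Of the other let-7 hairpins outside the loci, Mirlet7f-1, Mirlet7a-1, Mirlet7c-2 and Mirlet7f-2 have a copy. Their means were 208 ± 0.759, 728 ± 18.1, 1329 ± 103 and 6667 ± 362 CPM. The 5 without a copy ran from 1665 ± 53.2 CPM for Mir98 to 71319 ± 2977 CPM for Mirlet7g, so the ranges overlapped between Mir98 and Mirlet7f-2. All detected hairpins outside the 3 loci with a listed mature sequence were also split, these let-7 hairpins included. The median level was 71.6 CPM for the 34 with an identical copy of either arm and 43.4 CPM for the 247 others. This is the opposite order, but copies were scored here only from the sequences listed under each hairpin itself. A shared sequence listed only under a partner hairpin, as for Mirlet7a-2, would be missed, so some of the 247 can have a copy. Detected means at least 10 counts in both libraries, a filter that removes low hairpins from both sets.

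The libraries differed at 8 of the 9 hairpins by the exact binomial test, 2 higher in replicate 2 and 6 higher in replicate 1. Over all 412 tested hairpins 45.4% were called, 22.6% higher in replicate 2 and 22.8% higher in replicate 1. With total sense counts in place of TMM the split moved, to 1 higher in replicate 2 and 7 higher in replicate 1 among the 9, and to 79 and 120 over all tested hairpins, against 93 and 94. Calls depend on depth, and of the 126 tested hairpins with a mean of at least 500 counts, a limit chosen after seeing the data that all 9 passed, 88.1% were called. The count of 8 of 9 is therefore near the background at this depth. The test sets the counts of 1 library against the other and covers counting error only, at library sizes scaled by TMM, with p-values adjusted by Benjamini-Hochberg over the tested hairpins at 0.05.

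With an allowance for spread beyond counting, 0 of the 9 were called. That test, exactTest of edgeR at the common dispersion of both libraries (biological coefficient of variation 0.357), called 0.728% of the 412 hairpins, and 0 of the 9 had an unadjusted p under 0.05 (Mir99b had the lowest, 0.0935, by this exact test). The dispersion was estimated from these same libraries taken as 1 group, so the differences tested also set it. Few calls follow from this, and 0 of the 9 does not show that the libraries are alike. The differences given next are therefore differences between these libraries beyond counting error, not beyond the spread that hairpins show between them.

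**Figure D4:**
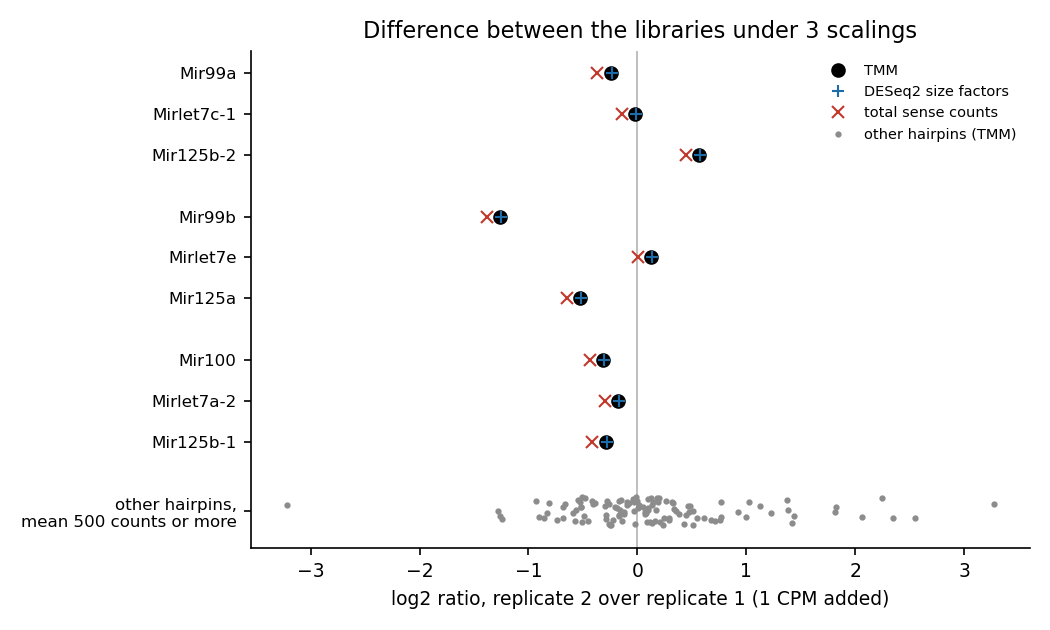
Log2 ratio of replicate 2 over replicate 1, with 1 CPM added, for the 9 hairpins under 3 scalings of the libraries (circle TMM, plus sign DESeq2 size factors, cross total sense counts), and for the other hairpins with a mean of at least 500 counts (grey). Mir99b at -1.26 lies farthest from 0 among the 9, and Mirlet7e lies at 0.12 with TMM and at 0.0016 with total sense counts.

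Mir99b differed most, with a log2 ratio of -1.26 and a ratio of replicate 2 to replicate 1 of 0.418 (95% exact interval 0.409 to 0.426). It was the 1 hairpin of the 9 to be called with a difference of at least 2-fold, against 11.9% of all tested hairpins and 15.1% of those with a mean of at least 500 counts. Its neighbours on chromosome 17 differed from it and from each other. Mir125a was lower in replicate 2, at a ratio of 0.696 (0.685 to 0.706), and Mirlet7e was higher, at 1.09 (1.07 to 1.11; adjusted p = 1.53e-22, exact binomial test). With total sense counts in place of TMM the Mirlet7e call was lost (adjusted p = 0.965, exact binomial test), at a log2 ratio of 0.0016.

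On chromosome 16, Mir99a and Mir125b-2 went opposite ways. Mir99a was lower in replicate 2, at a ratio of 0.843 (0.837 to 0.848), while Mir125b-2 was higher, at 1.49 (1.35 to 1.63; adjusted p = 3.79e-16, exact binomial test). Mirlet7c-1, which lies between them, did not pass the test (adjusted p = 0.760, exact binomial), with a ratio of 0.986 (0.931 to 1.05). It passed with total sense counts, as lower in replicate 2 (adjusted p = 0.00246, exact binomial test, log2 ratio -0.14).

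On chromosome 9 all 3 hairpins were lower in replicate 2, with ratios whose intervals were close. Mir100 had a ratio of 0.803 (0.788 to 0.818), Mirlet7a-2 of 0.883 (0.819 to 0.952; adjusted p = 0.00304, exact binomial test) and Mir125b-1 of 0.816 (0.759 to 0.878; adjusted p = 1.64e-07, exact binomial test). The median log2 ratio of the 9 hairpins was -0.25, against -0.0077 over all 412 tested hairpins and 0.00050 over the 126 with a mean of at least 500 counts. Total sense counts moved the median of all detected hairpins by about 0.12 downward, to -0.12, and each ratio here with it.

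The let-7 list outside the loci held 11 hairpins, of which 10 were tested. Of these, 6 were called higher in replicate 2 and 1 higher in replicate 1 by the exact binomial test, 7 of 10 beside 45.4% of all tested hairpins and 88.1% of those with a mean of at least 500 counts. Their median log2 ratio was 0.14. With total sense counts, an alternative chosen for this list after seeing the data, 4 were called higher in replicate 2 and 3 higher in replicate 1, and the median was 0.022. Mirlet7b changed direction between these scalings, with a log2 ratio of 0.05 under TMM and -0.07 under total sense counts. With edgeR's exactTest 0 of the 10 were called, and 0 had an unadjusted p under 0.05. Together they had 25.8% of sense counts in both replicates, while the 3 let-7 hairpins of the loci had 0.711% in replicate 1 and 0.700% in replicate 2. Mir351, of the miR-125 seed, was lower in replicate 2 at a ratio of 0.700 (0.653 to 0.750), beside 0.696 for Mir125a. In bulk tissue, fewer cells of a type and less RNA per cell cannot be told apart. Heart muscle markers also differed between the libraries: Mir208a had 3885 and 1485 CPM and Mir499 2732 and 5888 CPM, and all 7 markers summed to 6776 CPM in replicate 1 and 7481 CPM in replicate 2. Their part in the differences of the 9 hairpins was not tested.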

How the data were processed

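Small RNA was profiled in 2 heart libraries of 1 group. The deposited tables give each of 2202 miRNA genes raw counts of reads, once for both strands together and once for each strand, after 4 summary lines kept out of sizes and tests. The labels state a size range below 30 with no unit, and mm10 and GENCODE M21 are named in the deposited description files. No aligner, counter or read filter is named in the labels or these files. The first of the columns for a single strand, which has the larger total in both libraries, was used as sense, and it holds 35.9% and 35.6% of all reads in the tables. The opposite-strand column was used only as a check.

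All identifiers matched GENCODE M21, which gave names, coordinates and the hairpins searched for shared stretches; mature and printed hairpin sequences are RefSeq's. The let-7 list and the markers were matched by symbol or other name. Differences were tested with R 4.3.3 and edgeR 4.0.16 (TMM; sum of at least 10 counts), size factors came from DESeq2 1.42.0, and intervals from SciPy 1.17.1 (95%). The quasi-likelihood test needs residual degrees of freedom, which 1 library against 1 lacks. Log2 ratios add 1 CPM, which understates low genes. The binomial test was tested on simulated data with counting error only, which cannot show how it behaves with the larger spread between real libraries. No use of molecular identifiers is stated, so reads amplified by PCR need not be independent molecules.

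The members, lists and tests were chosen with earlier results of these data known. The text names the 9 members, the listed let-7 hairpins, Mir351, hairpins of the same 5p or seed, the gene opposite a member, the 2 hairpins nearest in level to the top member of each locus, and tissue markers. Alternatives were DESeq2 size factors, total counts, other count filters and pseudocounts, the column that ignores strand, all reads as denominator, edgeR's exactTest, and leaving out each replicate.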

Additional observations from a re-analysis of the deposited data

Results flagged for a closer look

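Gm25927, the predicted miRNA gene on the minus strand over Mirlet7e, had 24177 counts in replicate 1 and 31480 in replicate 2 in the opposite-strand column, which no comparison here uses. It is listed because these counts are above the 3 that a count of 0 allows. They equal the sense counts of Mirlet7e in the same libraries, and the sense counts of Gm25927 were 0 in both. For a gene on the minus strand, the opposite-strand column counts reads of the plus strand, on which Mirlet7e lies. The counts listed here are therefore reads of the strand of Mirlet7e and not of the strand of Gm25927. In the column that ignores strand Mirlet7e and Gm25927 were both at 0. That column had 857957 ambiguous reads in replicate 1 and 1274429 in replicate 2, against 0 in the sense column. The 9 hairpins themselves had 0 opposite-strand counts in both libraries. Groups of 2 libraries are too small for a check of single outlying samples.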

How the results depend on the processing

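The values depended most on the column and the denominator. With all reads of the table as denominator, the 3 loci held 2.32%, the Mir99a locus 1.43%, the Mir99b locus 0.680% and the Mir100 locus 0.211%. In the column that ignores strand, where Mirlet7e is at 0, the Mir99a locus held 5.21% and the Mir100 locus 0.772%, and the log2 ratio of Mirlet7c-1, which was not called, was 0.028 against -0.02. Leaving out each replicate gave 5.51 to 7.45% for the 3 loci, 3.49 to 4.49% for the Mir99a locus, 1.51 to 2.29% for the Mir99b locus and 0.504 to 0.678% for the Mir100 locus. With edgeR's exactTest 0 hairpins were called in either direction or at 2-fold, against 8, and 3 over all hairpins, against 187. Hairpins called higher in replicate 2 numbered 1 with total sense counts, where the Mirlet7e call was lost, and 1 without regard to strand, against 2. Of the 71 log2 ratios computed under other settings, 60 kept their direction and their side of the threshold. Those at pseudocounts of 0.5 and 5 CPM are among the 60. The pseudocount does not enter the test, so they could change neither direction nor side and say nothing about stability. DESeq2 size factors and the other count filters changed none of the calls of the 9 hairpins. The difference between the libraries has no value with a replicate left out. No paired analysis was possible because there is a single group. Depth limits Mir125b-2 most, at 679 counts.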

Other observations

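By the distance of log2(CPM + 1) over both libraries, the hairpins nearest in level to the most abundant member of each locus were as follows. Nearest to Mir99a was Mir139, with 42553 CPM in replicate 1, 32582 CPM in replicate 2 and a distance of 0.088, followed by Mir23a at 56336 and 35467 CPM (distance 0.36). Nearest to Mir125a were Mir191 at 8362 and 7788 CPM (distance 0.40) and Mir30e at 8718 and 4518 CPM (0.47). Nearest to Mir100 were Mir652 at 6240.2 and 5093 CPM (0.19) and Mir744 at 5428 and 3494 CPM (0.39). Each of the 6 lies on another chromosome than the hairpin it is nearest to. With 2 libraries, likeness in level is a description of these values only.

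Of the low let-7 relatives, Mir7j had 87 and 96 counts and Mir7k had 1 in each library, and Mir1961, listed with the let-7 seed, had 0 in both. Endothelial Mir126a stood at 87451 ± 476 CPM and smooth muscle Mir143 at 34450 ± 8168 CPM (SD, n = 2). The other smooth muscle hairpin of the list, Mir145a, was far lower, at 1493 ± 41.8 CPM. The 5 epithelial hairpins of the miR-200 family summed to 101 and 183 CPM in replicates 1 and 2. The erythroid list summed to 1654 and 1243 CPM and the leukocyte list to 6830 and 5000.4 CPM in replicates 1 and 2. Most of the leukocyte sum was Mir155, at 4873 and 3211 CPM, with Mir150 at 1672 and 1510 CPM. Mir223 had 191 and 184 CPM and Mir142 had 94.6 and 95.7 CPM. Most of the erythroid sum was Mir486, at 1334 CPM in replicate 1 and 1026 CPM in replicate 2. Mir486 is also a muscle hairpin, so in heart this sum does not measure red cells alone. Mir451a had 288 and 165 CPM and Mir144 had 32.1 and 52.4 CPM, in opposite directions.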
